A study of Mus musculus with 18 samples.

Results

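Transitional B cells are the newly arrived immature B cells of the spleen, and follicular B cells are the mature recirculating cells that most of them become. This maturation step was examined within Sh3gl1-/- mice, which lack endophilin A2, a membrane-bending protein of receptor endocytosis. The 6 libraries whose labels named Sh3gl1 knockout cells taken directly from the animal were used, 3 of transitional and 3 of follicular cells, out of 18 in the series. All mice were C57BL/6, and the 6 libraries came from untreated cells. The deletion was carried by the whole mouse, so other cell types of these mice lacked endophilin A2 as well. The 6 ex vivo libraries of wildtype littermates, 3 of each stage, entered only where the step was compared between genotypes, and cells cultured with the T-cell ligand CD40L were not used. The 3 libraries of a group were described as biological replicates.

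As background, transitional cells carry CD93 and much surface IgM, and are the stage at which self-reactive cells are removed or silenced. Cells that go on gain CD23, the homing receptors of the lymphoid follicle and surface IgD, and come to depend on the cytokine BAFF and on a tonic signal from the B-cell receptor (BCR). Follicular cells rest outside the cell cycle until they meet antigen and T-cell help.

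RNA was counted per gene, and levels are given as CPM, the counts of a gene scaled to library size with TMM factors. Values are listed for replicates 1, 2 and 3 in that order. Differences are log2 values of follicular over transitional cells with their standard error, so a positive value means a higher level in follicular cells. The test was edgeR's quasi-likelihood test, 3 libraries against 3, with Benjamini-Hochberg adjustment over every gene tested. Replicate number did not enter this fit unless stated, so its adjusted p-values leave out any pairing of the libraries. Genes with an adjusted p under 0.05 are referred to as called. Libraries held between 12942661 and 16514781 counts, and 3 counts, used as the floor for a gene at 0, correspond to between 0.182 and 0.232 CPM per library. In bulk RNA, fewer cells of a type and less RNA per cell cannot be told apart.

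Sh3gl1 itself (ENSMUSG00000003200, chromosome 17, 56016750 to 56036635, minus strand, GRCm38) checked the genotype labels. It had 7, 4 and 11 counts in the Sh3gl1-/- transitional libraries and 2, 3 and 1 counts in the Sh3gl1-/- follicular libraries. In wildtype cells it had 591, 467 and 377 counts in transitional and 528, 569 and 447 counts in follicular libraries. All 6 knockout libraries therefore lay far below all 6 wildtype ones. Of its paralogs in these 6 libraries, Sh3gl2 was at 0 throughout and Sh3gl3 did not exceed 2 counts.

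The labels of the cell stages were checked against the markers of the sort. The study's immunophenotyping gate separated mature from immature spleen B cells by B220 and CD93, then used CD23 with CD21/35 for follicular cells and CD23 with IgM for transitional cells. The gate of the RNA sort itself was not stated. Cd93 had 84.8, 88 and 59.4 CPM in transitional and 27, 22.9 and 14.8 CPM in follicular cells. Fcer2a, which encodes CD23, had 992, 797 and 1068 CPM in transitional and 1346, 1532 and 1222 CPM in follicular cells. The groups did not overlap for either gene, and Cd93 RNA was still counted in follicular cells. Cr2, which encodes CD21/35, and Ighm, which encodes the IgM heavy chain, had log2 differences of 0.66 and -1.51. Ptprc, which encodes B220, had a log2 difference of -0.01. These genes describe the gate and are not results of the comparison.

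Of 13870 genes tested, 585 were called higher in Sh3gl1-/- follicular than transitional cells, 4.22% of those tested, and 993 were called lower, 7.16%. These shares are the background for the counts of every gene list below. The median log2 difference of all genes tested was 0.00. Of the called genes that differed by at least 1 on the log2 scale, 85 were higher and 510 were lower in follicular cells. When replicate number entered the fit as a block, 846 genes were called higher, 6.1% of those tested, and 1320 lower, 9.52%.

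**Figure D1:**
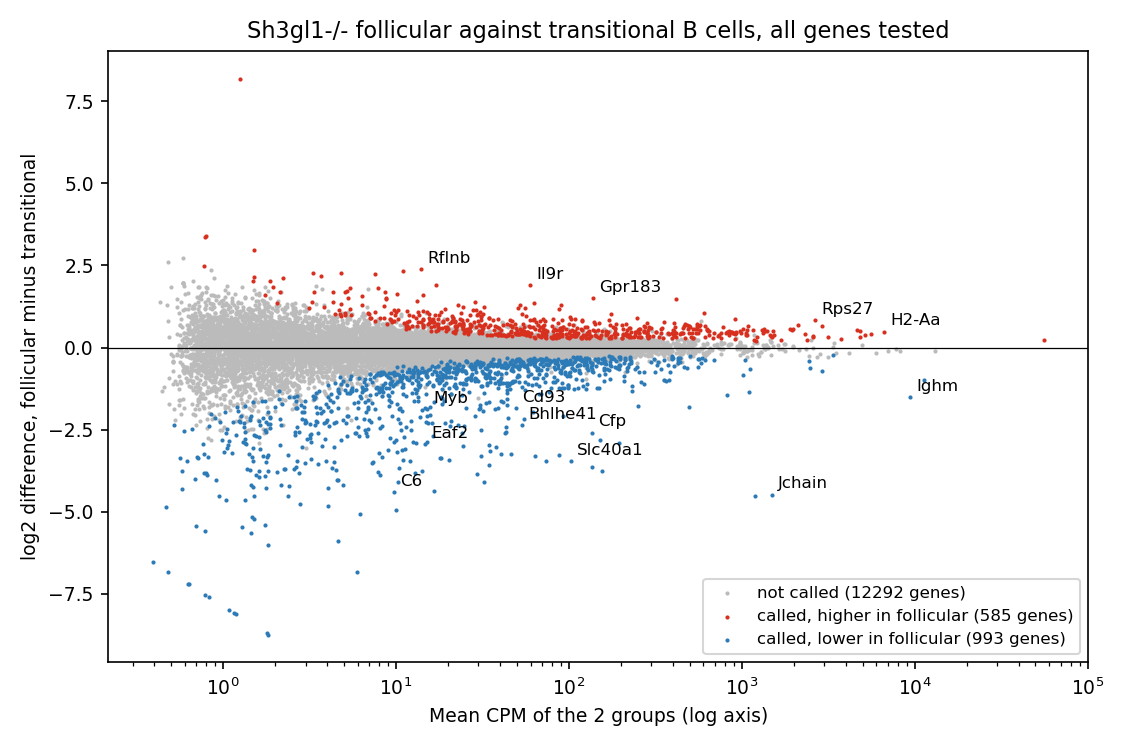
Each point is 1 of 13870 genes tested in Sh3gl1-/- cells; the x axis is the mean CPM of both groups on a log axis and the y axis the log2 difference, follicular minus transitional. Blue points (993 genes) outnumber red points (585 genes), and C6 and Jchain lie below -4.

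Genes of early B-cell development were lower in follicular cells. In this list of 13 genes, 6 passed the filter on low counts, 4 of them were called lower and 0 higher, and the median log2 difference was -0.93. Myb, a transcription factor of lymphoid progenitors, had 27.3, 26.7 and 17.1 CPM in transitional and 6.78, 7.96 and 4.55 CPM in follicular cells (log2 difference -1.88 ± 0.25, adjusted p = 0.00132). Vpreb3, a chaperone of immunoglobulin light chain assembly, had 342, 483 and 292 CPM in transitional and 168, 168 and 181 CPM in follicular cells (log2 difference -1.11 ± 0.16, adjusted p = 0.00198). The groups did not overlap for either gene. Bcl7a and Cd24a, the latter encoding the heat-stable antigen that marks immature B cells, were lower, with log2 differences of -0.99 and -0.80 (adjusted p = 0.00442 and 0.00473). The recombinase gene Rag1 had 15, 36 and 3 counts in the transitional libraries and 0, 0 and 0 in the follicular libraries, and was below the filter for testing. Rag2 had 8, 3 and 3 counts against 0, 0 and 0. Il7r, the interleukin-7 receptor of B-cell precursors, had 17.6, 11.3 and 9.07 CPM in transitional and 18, 13.6 and 13.9 CPM in follicular cells, and its groups overlapped.

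Among 34 tested B-cell transcription factors, 4 were called higher and 4 lower, and the median was -0.03. The count of 4 rises was 1 without transitional replicate 1 and 2 without follicular replicate 1. The core B-lineage factors did not pass the test, with log2 differences of -0.13 for Pax5, -0.21 for Ebf1 and -0.13 for Foxo1. Ebf1 was called lower with the replicate block (-0.20, adjusted p = 0.0375) and by DESeq2 (-0.21, adjusted p = 0.0271). Bhlhe41, a repressor known from B-1 cells, had the largest difference of the list. It was counted at 104, 102 and 64 CPM in transitional and 20.5, 19.5 and 12.5 CPM in follicular cells (log2 difference -2.36 ± 0.22, adjusted p = 0.000234). Zeb2, a zinc-finger repressor, had 129, 143 and 111 CPM in transitional and 47.2, 66.5 and 48.2 CPM in follicular cells (log2 difference -1.24 ± 0.14, adjusted p = 0.000719). Every transitional library lay above every follicular library for both repressors. Spib, an Ets-family factor of BCR signalling, and Id2, an inhibitor of E proteins, were also lower, with log2 differences of -1.01 and -0.83 (adjusted p = 0.00372 and 0.0093). Bcl6, the regulator of germinal centre B cells, had 81.5, 80.2 and 94.6 CPM in transitional and 121, 116 and 132 CPM in follicular cells (log2 difference 0.52 ± 0.09, adjusted p = 0.00628). Mef2c, Klf6 and Myc were higher by smaller amounts, with log2 differences of 0.33, 0.34 and 0.39 (adjusted p = 0.0142, 0.0149 and 0.0256). These last 3 calls were lost in 1, 3 and 5, respectively, of the 6 fits that each left out 1 library, at adjusted p of up to 0.0649, 0.0653 and 0.0877.

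Receptors of B-cell homing and positioning differed between the stages in both directions. Of 19 tested members, 6 were called higher in follicular cells and 4 lower, and 2 lower without transitional replicate 2 or 3 or follicular replicate 1. Gpr183, the oxysterol receptor EBI2 that guides B cells within the follicle (ENSMUSG00000051212, chromosome 14, 121952551 to 121965195, minus strand), had 80.8, 52.9 and 83.2 CPM in transitional and 199, 199 and 214 CPM in follicular cells (log2 difference 1.497 ± 0.15, adjusted p = 0.000333). Ccr6, a chemokine receptor of mature B cells, had 128, 89.8 and 130.0 CPM in transitional and 264, 193 and 254 CPM in follicular cells (log2 difference 1.03 ± 0.16, adjusted p = 0.00295). Itgb7, an integrin chain of mucosal homing, had 19.9, 15.4 and 23.2 CPM in transitional and 45.6, 35.3 and 43 CPM in follicular cells (log2 difference 1.08 ± 0.16, adjusted p = 0.00285). For these 3 genes all follicular libraries exceeded all transitional ones. Cxcr5, the receptor for the follicular chemokine CXCL13, had 229, 252 and 233 CPM in transitional and 311, 355 and 309 CPM in follicular cells (log2 difference 0.45 ± 0.08, adjusted p = 0.00667). Cd69, which limits egress by binding the sphingosine-1-phosphate (S1P) receptor S1PR1, rose by 0.48 on the log2 scale (adjusted p = 0.00273).

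S1pr3, an S1P receptor known from marginal zone B cells, and Cd44, a hyaluronan receptor, were lower in follicular cells. S1pr3 had 25.2, 35.6 and 19.5 CPM in transitional and 7.01, 12.1 and 9.25 CPM in follicular cells (log2 difference -1.496 ± 0.25, adjusted p = 0.00467). Cd44 had 131, 126 and 120.1 CPM in transitional and 69.2, 90.9 and 84.7 CPM in follicular cells (log2 difference -0.62 ± 0.11, adjusted p = 0.00497). Neither gene's groups overlapped. S1pr4 and Itga4 had smaller called falls, with log2 differences of -0.43 and -0.31 (adjusted p = 0.021 and 0.0472), which were lost in 4 and 5 of the 6 fits without 1 library, at adjusted p of up to 0.0788 and 0.161. Itga4 was also not called in the 12-library fit (adjusted p = 0.058). Ccr7 and S1pr1, receptors of lymph node entry and exit, had log2 differences of -0.20 and -0.13, with adjusted p of 0.195 and 0.395. Cxcr4 had 32.4, 4 and 29.7 CPM in transitional and 35.5, 4.53 and 35.3 CPM in follicular cells, so that replicate 2 was about equally low in both stages.

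**Figure D2:**
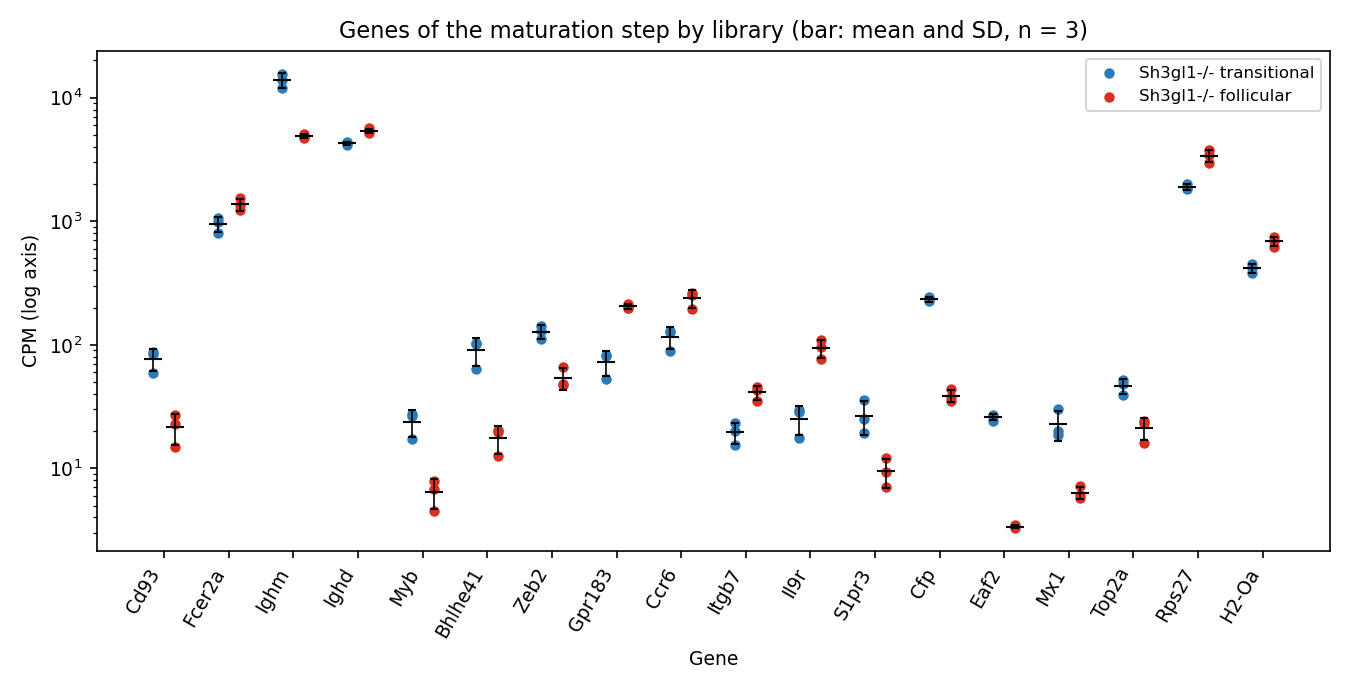
CPM on a log axis for 18 genes, with 1 point per library, blue for Sh3gl1-/- transitional and red for Sh3gl1-/- follicular cells, and the mean and SD of 3 libraries as bars. Gpr183, Ccr6, Itgb7 and Il9r lie higher in all follicular libraries, and Cfp, Eaf2 and Bhlhe41 lower.

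Genes of the BCR and its proximal signalling were called in both directions. Of 24 tested members, 2 were called higher and 4 lower, a total of 6 where 11.4% of all genes tested were called, and the median was -0.08. With the replicate block these counts were 4 and 7. The count of 4 falls was 1 without follicular replicate 1 or 3, and the count of 2 rises was 1 without transitional replicate 1 or 2 or follicular replicate 1 or 3. Cd79a and Cd79b, the signalling chains of the receptor, had log2 differences of -0.16 and -0.29, and Btk, a kinase of the pathway, -0.10, and none passed the test. Cd79b was called with the replicate block (-0.28, adjusted p = 0.0206) and by DESeq2 (-0.29, adjusted p = 0.0223). Vav2, a guanine nucleotide exchange factor, had 53.4, 49.99 and 47.4 CPM in transitional and 34.4, 34.6 and 32.1 CPM in follicular cells (log2 difference -0.58 ± 0.10, adjusted p = 0.00419). Rasgrp3, which activates Ras downstream of the BCR, had 335, 296 and 337 CPM in transitional and 419, 443 and 433 CPM in follicular cells (log2 difference 0.42 ± 0.08, adjusted p = 0.00613). Vav1, Syk and Cd81 fell by 0.43, 0.37 and 0.33 on the log2 scale (adjusted p = 0.0147, 0.0158 and 0.0173), and Nfatc1 rose by 0.29 on that scale (adjusted p = 0.0308). These 4 calls were lost in 2, 3, 4 and 5 of the 6 fits without 1 library, in that order, at adjusted p of up to 0.0605, 0.0764, 0.0807 and 0.105.

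Of 20 tested inhibitory receptors and phosphatases, 7 were called lower in follicular cells and 1 higher, with a median of -0.13. The count of 7 was 4 without transitional replicate 2. The rise, of Cd200, was lost in 5 of the 6 fits without 1 library, all but that without follicular replicate 1, and in the 12-library fit (adjusted p = 0.0689), and 2 genes rose with the replicate block. Cd300a, an inhibitory receptor for phospholipids, had 35.2, 21 and 28.3 CPM in transitional and 6.24, 3.95 and 3.01 CPM in follicular cells (log2 difference -2.68 ± 0.28, adjusted p = 0.000367). Pirb, the paired immunoglobulin-like receptor B, had 112, 119.6 and 102 CPM in transitional and 53, 52.4 and 35.7 CPM in follicular cells (log2 difference -1.24 ± 0.14, adjusted p = 0.00072). Siglecg, a sialic acid receptor that restrains BCR calcium signals, had 1266, 1622 and 1182 CPM in transitional and 812, 934 and 866 CPM in follicular cells (log2 difference -0.64 ± 0.11, adjusted p = 0.00523). Dok3, an adaptor that dampens BCR signalling, fell by 0.71 on the log2 scale (adjusted p = 0.00298). Cd22, Cd72, Fcgr2b and Ptpn6, other inhibitors of BCR signalling, had log2 differences of 0.14, -0.22, 0.22 and -0.14 and were not called. Cd300a and Pirb are also expressed by macrophages, whose markers fell between the stages as described below, and the part of that fall in these values was not tested.

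Tnfrsf13b, which encodes the receptor TACI for BAFF and APRIL, had 546, 662 and 554 CPM in transitional and 384, 394 and 356 CPM in follicular cells (log2 difference -0.64 ± 0.09, adjusted p = 0.00186). Tnfrsf13c, which encodes the BAFF receptor, had 513, 667 and 522 CPM in transitional and 449, 539 and 438 CPM in follicular cells, overlapping between stages, with a log2 difference of -0.26 (adjusted p = 0.202). It was called with the replicate block (log2 difference -0.25, adjusted p = 0.0147). Tnfrsf17, the receptor BCMA of plasma cells, had 4.19, 0.721 and 5.31 CPM in transitional and 0.154, 0.0647 and 0 CPM in follicular cells, with 2, 1 and 0 counts in the follicular libraries. In the BCL2 family 15 genes were tested, 4 called higher and 1 lower, and 3 lower with the replicate block and 0 lower without transitional replicate 2 or follicular replicate 1. The fall was that of Mcl1, with log2 differences between -0.38 and -0.27 over the alternative fits. It was lost in 4 of the 6 fits without 1 library, at adjusted p of up to 0.0921. The lowest log2 difference of the list, -1.28, was not called. Bcl2, the anti-apoptotic founder of the family, had 122, 103 and 134 CPM in transitional and 179, 171 and 174 CPM in follicular cells (log2 difference 0.54 ± 0.10, adjusted p = 0.0065). Bcl2a1d and Bcl2a1b were higher by 1.05 and 0.82 on the log2 scale (adjusted p = 0.00376 and 0.00567), but these copies are nearly identical and their reads may have been divided between them. Pmaip1, which encodes the pro-apoptotic protein NOXA, rose by 0.87 on that scale (adjusted p = 0.0145), a call lost without follicular replicate 1 at adjusted p = 0.065. Among 22 tested NF-kB subunits and feedback genes, Traf1 was called higher and Nfkbia lower, with log2 differences of 1.02 and -0.58 (adjusted p = 0.00541 and 0.00853). These 2 calls among 22 were a smaller share than the 11.4% called over all genes tested. In the fit of 12 libraries, which includes wildtype cells, Nfkbia had an adjusted p of 0.0688.

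Of 18 tested cytokine receptors, 2 were called higher and 2 lower, and 5 higher and 3 lower with the replicate block. The count of 2 falls was 1 without transitional replicate 1 or 3 or follicular replicate 3. Il9r, the interleukin-9 receptor, had 29.5, 17.5 and 28.7 CPM in transitional and 108, 76.8 and 96.6 CPM in follicular cells (log2 difference 1.89 ± 0.20, adjusted p = 0.000367). Its lowest follicular library lay above its highest transitional library. Tgfbr2, a receptor for TGF-beta, had 113, 108 and 107 CPM in transitional and 143, 142 and 149 CPM in follicular cells (log2 difference 0.40 ± 0.08, adjusted p = 0.00738). Ifnar1, a chain of the type I interferon receptor, had 129, 166 and 137 CPM in transitional and 83.5, 103 and 72.6 CPM in follicular cells (log2 difference -0.73 ± 0.14, adjusted p = 0.00772). Toll-like receptors and their partners gave 4 called falls and 0 rises among 14, and 1 rise with the replicate block. The count of 4 was 2 without transitional replicate 1 or 2 or follicular replicate 1 or 3, in each of which Tlr2 and Tlr7 were not called, at adjusted p of up to 0.106 and 0.12. Unc93b1, the chaperone that carries nucleic acid-sensing Toll-like receptors to endosomes, had 636, 728 and 657 CPM in transitional and 516, 498 and 448 CPM in follicular cells (log2 difference -0.47 ± 0.08, adjusted p = 0.00519). Ly96, the MD-2 partner of TLR4, fell by 0.81 on the log2 scale (adjusted p = 0.00741). Macrophages also express Tlr2, Tlr7 and Ly96, and the part of the macrophage transcripts described below in these falls was not tested. Of 12 tested Notch pathway genes 0 were called by edgeR, with 2 at an unadjusted p under 0.05, and 1 rose by DESeq2 and with the replicate block. The Notch receptor gene Notch2 had 169, 137 and 141 CPM in transitional and 211, 180.4 and 168 CPM in follicular cells (adjusted p = 0.0947). It was the Notch gene called with the replicate block (0.32, adjusted p = 0.00735).

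Genes of antigen presentation on MHC class II were higher in Sh3gl1-/- follicular cells. Of 11 tested members, 8 were called higher and 0 lower, with a median of 0.44. H2-Aa, which encodes the alpha chain of the class II molecule I-A, had 5639, 5439 and 5540.4 CPM in transitional and 7628, 8018 and 7625 CPM in follicular cells (log2 difference 0.49 ± 0.04, adjusted p = 0.000221). H2-Eb1, the beta chain of I-E, had 3701, 3706 and 3925 CPM in transitional and 5282, 5603 and 5475 CPM in follicular cells (log2 difference 0.53 ± 0.05, adjusted p = 0.000227). H2-Oa, a chain of the H2-O molecule that restrains peptide loading, had 421, 378 and 453 CPM in transitional and 695, 621 and 743 CPM in follicular cells (log2 difference 0.72 ± 0.09, adjusted p = 0.00107). The groups were apart for all 3 genes. Ciita, the master activator of class II transcription, and Cd74, the invariant chain, were higher by 0.46 and 0.22 on the log2 scale (adjusted p = 0.00541 and 0.00364). H2-DMa, H2-DMb1 and H2-DMb2, the chains of the peptide exchange factor, were also called, with log2 differences between 0.33 and 0.50. H2-Ab1, the partner chain of H2-Aa, had 8018, 8566 and 9044 CPM in transitional and 8428, 7710.3 and 7860.1 CPM in follicular cells, so that 1 follicular value lay within the transitional range, and was not called (adjusted p = 0.326).

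Ighd rose in follicular cells, while most other immunoglobulin constant region genes fell. Ighd, the IgD heavy chain gene, had 4304, 4150.4 and 4344 CPM in transitional and 5179.5, 5632 and 5342 CPM in follicular cells (log2 difference 0.34 ± 0.05, adjusted p = 0.00238). Ighm, part of the gate, had 13910.0, 12036 and 15678 CPM in transitional and 4842, 5091 and 4701 CPM in follicular cells. Of 11 tested constant region genes, 7 were called lower, the gate gene Ighm among them, and 1, Ighd, higher. Igkc, the kappa constant region, had 14705, 10552 and 20150.0 CPM in transitional and 7478, 6871 and 8495 CPM in follicular cells (log2 difference -0.99 ± 0.18, adjusted p = 0.00717). Iglc1 and Iglc2, lambda constant regions, fell by 1.36 and 0.42 on the log2 scale (adjusted p = 0.000227 and 0.00248). Many variable segments fell. Of 94 tested Ighv segments 46 were called lower, of 97 Igkv segments 47, and of 3 Iglv segments 3, with 0 called higher in each family and medians of -0.90, -0.66 and -1.18. Segments share reads with near-identical copies, so their separate values are uncertain.

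Switched isotypes and Jchain were also lower in follicular cells. Ighg2c had 30.02, 29.6 and 19.6 CPM in transitional and 1.62, 2.39 and 1.84 CPM in follicular cells (log2 difference -3.75 ± 0.24, adjusted p = 4.17e-05), and Igha had 75.1, 36.9 and 44.3 CPM in transitional and 22.4, 12 and 15.3 CPM in follicular cells (log2 difference -1.66 ± 0.28, adjusted p = 0.00498). Jchain, the joining chain of secreted IgM and IgA, had 2837, 1094 and 4637 CPM in transitional and 117, 117 and 149 CPM in follicular cells (log2 difference -4.48 ± 0.44, adjusted p = 0.000286). Its transitional values were widely spread, with replicate 2 lowest, and all lay above the follicular ones. Of 5 tested plasma cell markers, 2 were called lower in follicular cells, Jchain and Tnfrsf17, and 0 higher, with a median of -1.015. Of the others, Xbp1 had 31.2, 19.1 and 44 CPM in transitional and 27.4, 26.1 and 31.1 CPM in follicular cells and was not called. Prdm1, below the filter for testing, had 23, 6 and 22 counts against 7, 9 and 9. The 6 plasma cell markers together summed, in plain CPM without the TMM scaling, to between 1195.6 and 4740.3 CPM in transitional and between 208.5 and 231.9 CPM in follicular libraries, and Jchain made up most of the sum. In wildtype cells the sum lay between 522.7 and 742 CPM in transitional and between 132 and 212.4 CPM in follicular libraries. Whether plasma cells contributed to the fall of immunoglobulin RNA was not tested.

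Macrophage transcripts were much higher in the transitional libraries. Of 12 tested monocyte or macrophage markers, 10 were called lower in follicular cells and 0 higher, with a median log2 difference of -2.99, and none was at 0 in any library. Csf1r, the receptor for the macrophage growth factor CSF1, had 73.3, 53 and 75.4 CPM in transitional and 11.6, 7.05 and 6.32 CPM in follicular cells (log2 difference -3.02 ± 0.23, adjusted p = 9.93e-05). C1qa, a chain of complement C1q, had 67.1, 44 and 77.2 CPM in transitional and 8.94, 4.85 and 7.64 CPM in follicular cells (log2 difference -3.14 ± 0.25, adjusted p = 0.000146). Vcam1, an adhesion molecule of splenic macrophages and stroma, had 295, 191 and 268 CPM in transitional and 29.8, 9.77 and 20.9 CPM in follicular cells (log2 difference -3.65 ± 0.34, adjusted p = 0.000227). The summed level of the list, also in plain CPM as for the other marker sums, was 1242.9, 726.5 and 1032.8 CPM in Sh3gl1-/- transitional libraries and 327.3, 142.1 and 258.8 CPM in follicular ones. In wildtype libraries it was 756, 939.7 and 713.4 CPM in transitional and 138.8, 147.8 and 173.7 CPM in follicular cells, so the fall was present in both genotypes. Lyz2 and Itgam, the other two markers, had log2 differences of -0.75 and -0.80 and were not called. Lyz2 was called with the replicate block (-0.78, adjusted p = 0.00272).

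Markers of other cell types gave fewer calls. The summed B-cell markers lay between 14386.5 and 18202.4 CPM in transitional and between 12660.4 and 13481.2 CPM in follicular libraries. Ms4a1, which encodes CD20, fell by 0.73 on the log2 scale (adjusted p = 0.00633), and was 1 of 6 B-cell markers called, 3 with the replicate block. T-cell markers were between 216.4 and 315.5 CPM in transitional and between 353.3 and 438.5 CPM in follicular libraries, and 3 of 11 were called higher, 9 with the replicate block. The count of 3 was between 1 and 6 in the fits without 1 library, at 1 without transitional replicate 2 or 3 or follicular replicate 1, at 6 without transitional replicate 1 and at 5 without follicular replicate 2. Cd3e, a chain of the T-cell receptor complex, had 16.4, 13.9 and 17.8 CPM in transitional and 27.2, 25.1 and 31.8 CPM in follicular cells (log2 difference 0.81 ± 0.15, adjusted p = 0.00631), and an adjusted p of 0.106 in the 12-library fit. Of 8 natural killer cell markers 1 was called higher and 0 lower, and 2 higher and 1 lower with the block. That rise, of Gzma, was not called in 5 of the 6 fits without 1 library, all but that without follicular replicate 2, or in the 12-library fit (adjusted p = 0.518). Neutrophil markers were high in replicate 1 of both stages, with sums of 627.2, 126.4 and 190.4 CPM in transitional and 870.7, 194.9 and 311.9 CPM in follicular libraries. By edgeR 0 of the 10 were called, with 0 at an unadjusted p under 0.05 and 0 called by DESeq2, whereas 6 rose with the block. Erythroid markers were low in replicate 2 of both stages, with sums of 9157.1, 4562.4 and 9728.1 CPM against 6784.2, 3062.3 and 9421.7 CPM, and 0 of 6 were called by edgeR or DESeq2, with 0 at an unadjusted p under 0.05 and 4 lower with the block. Of the marginal zone list, Cd1d1 and S1pr3 were called lower (log2 difference of Cd1d1 -0.78, adjusted p = 0.00112) and the gate gene Cr2 higher, and of the B-1 list Bhlhe41 alone was called. Dendritic cell, platelet and bone marrow precursor markers gave 0 calls by edgeR with or without the block and 0 by DESeq2, with 1, 0 and 0 members at an unadjusted p under 0.05.

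**Figure D3:**
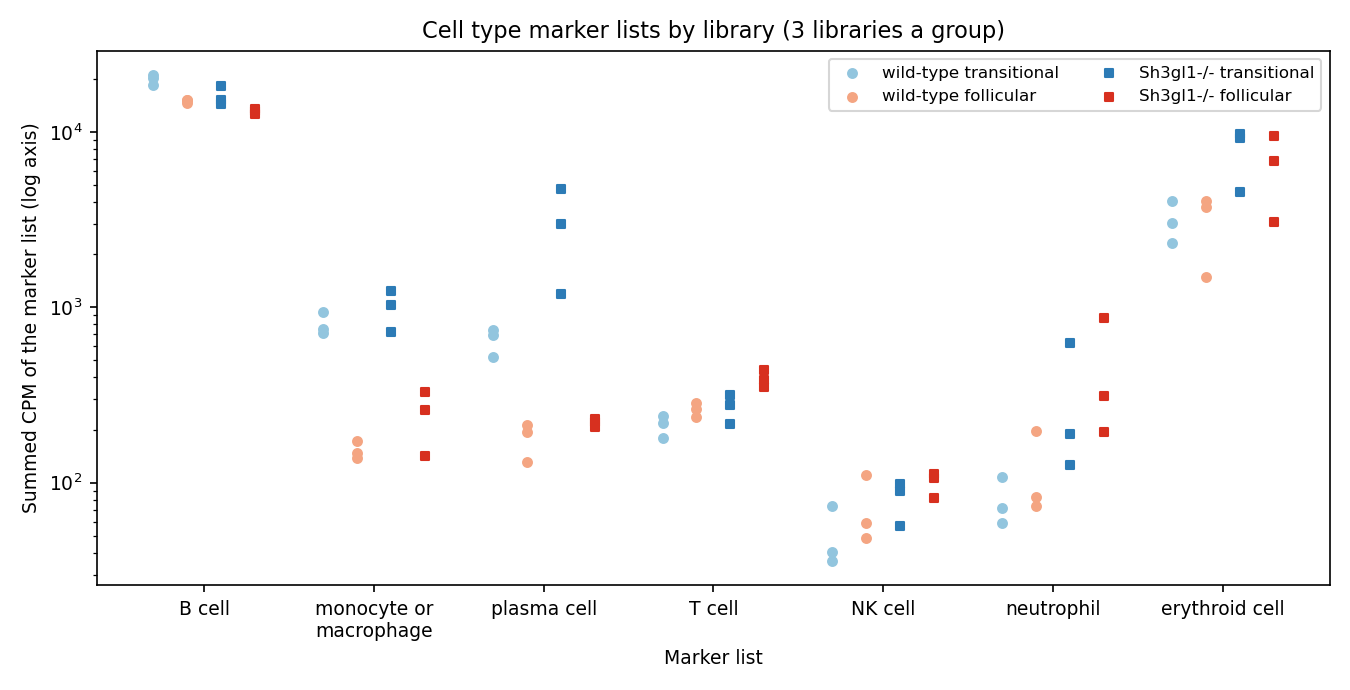
Summed CPM of cell type marker lists on a log axis, with 1 point per library and 4 groups of 3, circles for wildtype and squares for Sh3gl1-/- cells. Macrophage and plasma cell markers separate transitional from follicular libraries in both genotypes, while erythroid and neutrophil sums overlap between stages of 1 genotype.

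The falls with the strongest statistical evidence included many genes that macrophages express. Cfp, which encodes the complement protein properdin (ENSMUSG00000001128, chromosome X, 20925454 to 20931555, minus strand), had 246, 229.6 and 226 CPM in transitional and 43.6, 34.8 and 38 CPM in follicular cells (log2 difference -2.59 ± 0.10, adjusted p = 3.13e-06). C6, a complement component, had 18.1, 17.7 and 19.7 CPM in transitional and 1, 0.712 and 0.881 CPM in follicular cells (log2 difference -4.41 ± 0.22, adjusted p = 1.26e-05). Ctsb, the lysosomal protease cathepsin B, had 878, 681 and 764 CPM in transitional and 244, 216 and 206 CPM in follicular cells (log2 difference -1.80 ± 0.10, adjusted p = 2.01e-05). Adamdec1, a secreted metalloprotease, had a log2 difference of -3.80 (adjusted p = 4.17e-05). Cd5l and Fcna, secreted proteins of tissue macrophages, fell by 3.83 and 3.47 on that scale (adjusted p = 4.69e-05 and 8.36e-05). Among the largest falls at 10 CPM or more, Cd163, the haemoglobin scavenger receptor, Mrc1, the mannose receptor, and Itgad, an integrin chain, fell by 4.36, 4.10 and 4.10 on the log2 scale (adjusted p = 0.00121, 0.000212 and 0.000234). Mertk, a receptor for apoptotic cells, had 13.2, 8.84 and 13.3 CPM in transitional and 0.308, 0 and 0 CPM in follicular cells, with 4, 0 and 0 counts in the follicular libraries. Slc1a3, a glutamate transporter, had 9.59, 7.34 and 10.3 CPM in transitional and 0.154, 0.0647 and 0.22 CPM in follicular cells. Its follicular libraries held 2, 1 and 3 counts. The summed macrophage markers given above were also lower in follicular cells, and the part of macrophages in these falls was not tested.

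Like all genes of the preceding paragraph but Cd5l, the other genes of the same rank are not in the macrophage marker list. The part of macrophages in their values was not tested. Eaf2, an elongation factor partner, had 26.4, 27.1 and 24.3 CPM in transitional and 3.39, 3.3 and 3.45 CPM in follicular cells (log2 difference -2.94 ± 0.15, adjusted p = 1.34e-05). Its values spread little within either group. Tcf7l2, a transcription factor of the Wnt pathway, had 37.6, 39 and 48 CPM in transitional and 6.4, 7.51 and 6.39 CPM in follicular cells (log2 difference -2.61 ± 0.15, adjusted p = 2.00e-05). Nedd4, a ubiquitin ligase, had 133, 187 and 128 CPM in transitional and 35, 37.9 and 32.1 CPM in follicular cells (log2 difference -2.09 ± 0.15, adjusted p = 7.36e-05). Agbl1, a carboxypeptidase, had 9.17, 21.9 and 5.09 CPM in transitional and 0.154, 0.518 and 0.367 CPM in follicular cells (log2 difference -5.06 ± 0.64, adjusted p = 0.00107). Its follicular libraries held 2, 8 and 5 counts, near the floor.

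Rises were fewer than falls. Rflnb, a regulator of filamin (ENSMUSG00000020846, chromosome 11, 76019194 to 76027782, minus strand), had 5.45, 3.01 and 4.94 CPM in transitional and 23, 21.2 and 26.1 CPM in follicular cells (log2 difference 2.39 ± 0.22, adjusted p = 0.000227). Gdf11, a ligand of the TGF-beta family, had 32.1, 26 and 32.2 CPM in transitional and 73.4, 66.8 and 81.6 CPM in follicular cells (log2 difference 1.296 ± 0.12, adjusted p = 0.000227). Pigr, the polymeric immunoglobulin receptor, had 15.6, 14 and 14.2 CPM in transitional and 35.6, 35.7 and 31.8 CPM in follicular cells (log2 difference 1.23 ± 0.12, adjusted p = 0.000269). In these 3 genes no follicular library fell within the transitional range. St6galnac3, a sialyltransferase, was higher by 1.603 on the log2 scale (adjusted p = 0.000293). Crb3, a cell polarity gene, and Chst10, a sulfotransferase, were higher by 2.25 and 1.92 on that scale (adjusted p = 0.00062 and 0.00124). Pacsin1, which encodes a membrane-bending F-BAR protein of endocytosis, had 3.24, 2.82 and 6.12 CPM in transitional and 13.5, 12.4 and 13.4 CPM in follicular cells (log2 difference 1.70 ± 0.28, adjusted p = 0.0045). Nfatc2, a calcium-regulated transcription factor, was higher by 1.63 on the log2 scale (adjusted p = 0.00996), and its adjusted p was 0.052 without follicular replicate 3. The predicted gene Gm20429 and Rps12-ps3, named as a pseudogene but annotated as protein-coding, also had rises among the 8 largest. They were of 2.34 and 1.82 on the log2 scale (adjusted p = 0.00318 and 0.0181). The call of Rps12-ps3 was lost in 2 of the 6 fits without 1 library (adjusted p = 0.0604 and 0.0731, without follicular replicates 2 and 3) and in the 12-library fit (adjusted p = 0.169).

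A list of endophilin and clathrin endocytosis genes, which includes the deleted Sh3gl1, gave 1 call between stages, where 11.4% of all genes tested were called. The list does not hold Pacsin1, whose rise is given above. In the list, 7 members were at an unadjusted p under 0.05, and DESeq2 called 2 higher and 2 lower. Of 26 tested members of the endophilin and clathrin list, Bin1, an amphiphysin family member, was called lower by 0.30 on the log2 scale (adjusted p = 0.036), and 0 were called higher. That call was lost in 5 of the 6 fits without 1 library, at adjusted p of up to 0.112, and in the 12-library fit (adjusted p = 0.149), and with the replicate block 2 members rose and 2 fell. Cltc, the clathrin heavy chain, had 233, 247 and 241 CPM in transitional and 227, 214 and 188 CPM in follicular cells, and Dnm2, the dynamin of endocytosis, had 49.97, 49 and 50.8 CPM in transitional and 44.5, 49.4 and 39.4 CPM in follicular cells. Neither passed the test (adjusted p = 0.182 and 0.357).

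Genes of iron release and haem breakdown were among the iron genes that fell. Of 14 iron genes tested, 7 were called lower and 0 higher. Slc40a1, the iron exporter ferroportin (ENSMUSG00000025993, chromosome 1, 45908068 to 45926523, minus strand), had 197, 165 and 200.4 CPM in transitional and 21.8, 16.2 and 13.2 CPM in follicular cells (log2 difference -3.46 ± 0.17, adjusted p = 1.26e-05). Hmox1, haem oxygenase, had 96.3, 61.3 and 94.8 CPM in transitional and 11.6, 9.19 and 6.09 CPM in follicular cells (log2 difference -3.23 ± 0.24, adjusted p = 9.74e-05). Trf, the iron carrier transferrin, had 350.2, 208 and 314 CPM in transitional and 32.8, 15.7 and 16.7 CPM in follicular cells (log2 difference -3.75 ± 0.29, adjusted p = 0.000126). Iron-recycling macrophages of the spleen express Slc40a1 and Hmox1. The macrophage marker sum was lower in every follicular than in every transitional library, and the part of macrophages in these values was not tested. Fth1, the ferritin heavy chain, and Ncoa4, which delivers ferritin for breakdown, fell by 0.95 and 0.54 on the log2 scale (adjusted p = 0.00331 and 0.00383). In the 12-library fit Fth1 had an adjusted p of 0.0691 and was not called. Tfrc, the transferrin receptor of iron uptake, had 55, 71.1 and 63.2 CPM in transitional and 44.9, 59.4 and 45.7 CPM in follicular cells, and was not called (adjusted p = 0.152), but was with the replicate block (-0.34, adjusted p = 0.0255).

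Interferon-induced genes leaned lower in follicular cells. Of 25 tested, 9 were called lower and 0 higher, with a median of -0.40. Mx1, an antiviral GTPase, had 20.1, 30.1 and 18.7 CPM in transitional and 6.09, 7.18 and 5.8 CPM in follicular cells (log2 difference -1.85 ± 0.21, adjusted p = 0.000651). Oas2, an oligoadenylate synthetase, had 15.5, 23.6 and 9.74 CPM in transitional and 3.7, 6.08 and 3.6 CPM in follicular cells (log2 difference -1.86 ± 0.34, adjusted p = 0.0063). Replicate 2 was the highest transitional library for both. Mx2, Oasl1 and Rsad2 fell by 2.21, 1.10 and 0.91 on the log2 scale (adjusted p = 0.00386, 0.00856 and 0.00888). The count of 9 was 5 without replicate 1 or without replicate 3 of the follicular group. Macrophages also express these genes, and the part of the macrophage transcripts in the fall was not tested.

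Ribosomal protein genes rose together. Of 82 tested, 74 were called higher and 0 lower, and the median log2 difference was 0.51 against 0.00 for all genes tested. Rps27 had 1844, 1824 and 2011 CPM in transitional and 3432, 2979 and 3773 CPM in follicular cells (log2 difference 0.84 ± 0.08, adjusted p = 0.000303). Eef1a1, the elongation factor that brings transfer RNA to the ribosome, moved alike, with 3993, 3923 and 4125 CPM in transitional and 5532, 5584 and 5782 CPM in follicular cells (log2 difference 0.49 ± 0.05, adjusted p = 0.000227). Rps2 and Rpl37a were higher by 0.94 and 0.69 on the log2 scale (adjusted p = 0.000311 and 0.000333). The 8 members not called included Rpl13, with 85.1, 114 and 155 CPM in transitional and 109, 86.2 and 119 CPM in follicular cells. Rpl34, also not called, had 243, 70.5 and 74.4 CPM in transitional and 359.7, 94.9 and 115 CPM in follicular cells, with replicate 1 highest in both stages, and was called with the replicate block (0.54, adjusted p = 0.000648). Ribosomal protein genes have many processed pseudogenes, and how reads were divided among them affects single members such as Rps2.

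Energy metabolism showed narrower changes. Of 92 tested respiratory chain genes, 12 were called higher and 4 lower, and 7 lower with the replicate block. The count of 12 was 20 without follicular replicate 2 and 7 without follicular replicate 3, and the count of 4 was 9 without transitional replicate 1, 2 without follicular replicate 3 and 1 in the 12-library fit. Of the 12, 9 were encoded by mitochondrial DNA. The gene mt-Cytb, which encodes cytochrome b, had 4518, 4818 and 4938 CPM in transitional and 5959, 6413 and 6802 CPM in follicular cells (log2 difference 0.43 ± 0.06, adjusted p = 0.00177). Uqcrc1, a nuclear-encoded core subunit of complex III, moved the other way, with 183, 211 and 220.3 CPM in transitional and 145, 149 and 135 CPM in follicular cells (log2 difference -0.52 ± 0.09, adjusted p = 0.0052), and an adjusted p of 0.0601 in the 12-library fit. Of 20 cholesterol synthesis genes 5 were called higher and 0 lower, with a median of 0.21. Sqle, squalene epoxidase, had 9.05, 11.4 and 10.3 CPM in transitional and 21.7, 21.5 and 19.3 CPM in follicular cells (log2 difference 1.02 ± 0.15, adjusted p = 0.00244). Idi1, an isomerase of the pathway, was higher by 0.61 on the log2 scale (adjusted p = 0.00741). Without transitional replicate 1 or 2 or follicular replicate 3 the cholesterol count of 5 was 3. Of 18 glycolysis genes 4 were called higher and 1 lower, with a median of 0.17. The count of 4 was 2 without transitional replicate 2 or follicular replicate 3, and the calls of Aldoa and Aldoc, which encode aldolases, were each lost in 4 of the 6 fits without 1 library, at adjusted p of up to 0.115 and 0.0566. The fall was that of Pgam1, a phosphoglycerate mutase, and was lost in 5 of the 6 fits without 1 library, all but that without transitional replicate 1, and in the 12-library fit (adjusted p = 0.15). Eno1, enolase, had 771, 692 and 734 CPM in transitional and 947, 939 and 955 CPM in follicular cells (log2 difference 0.37 ± 0.06, adjusted p = 0.005), and Slc2a3, a glucose transporter, had 59.7, 49.5 and 56.2 CPM in transitional and 71.4, 87.7 and 78.7 CPM in follicular cells (log2 difference 0.52 ± 0.11, adjusted p = 0.0111). Of 14 tested immediate early genes, 0 were called by edgeR, with 5 at an unadjusted p under 0.05. DESeq2 called 1 higher and 2 lower, and 1 rose and 1 fell with the replicate block.

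**Figure D4:**
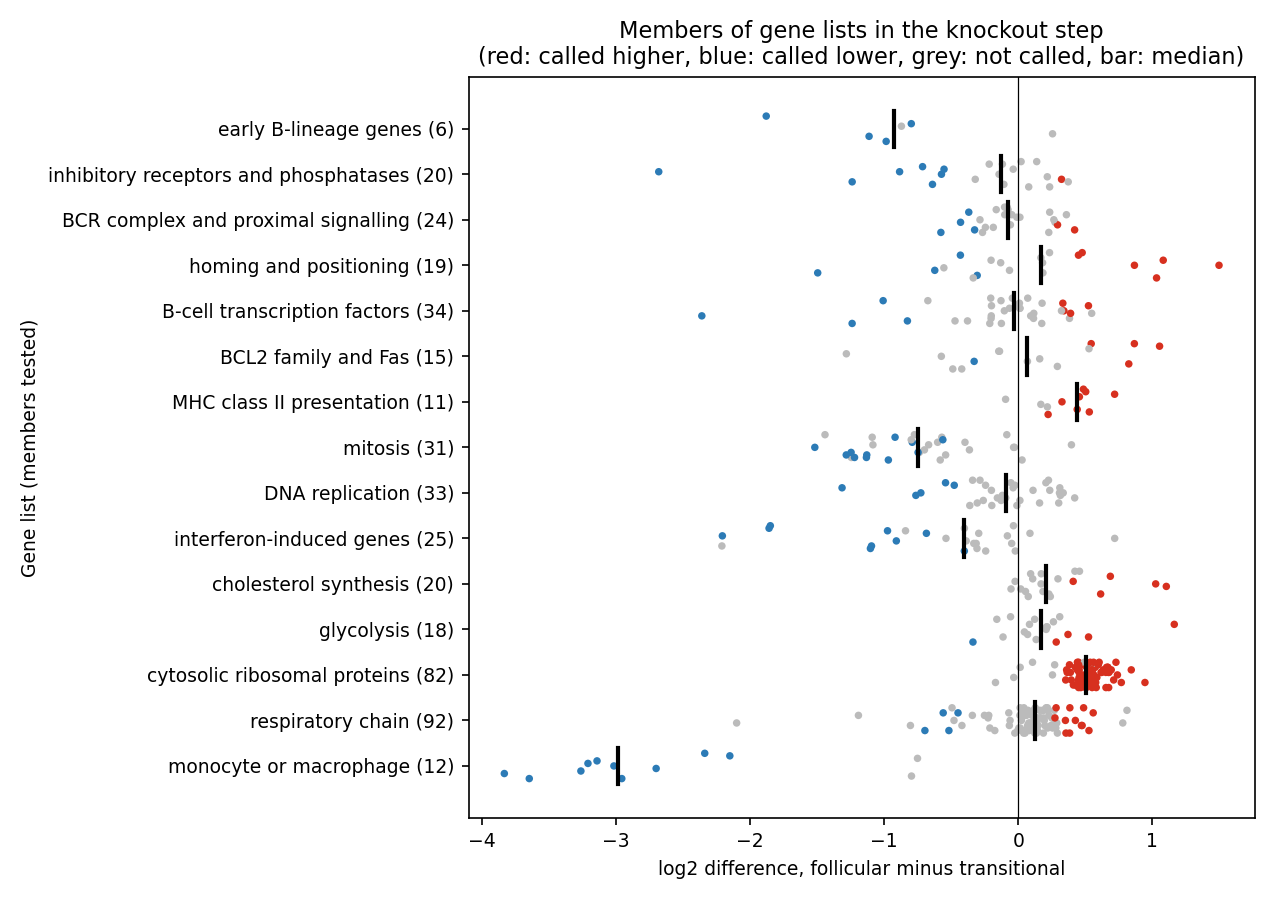
Each point is a tested member of a gene list, placed by its log2 difference (follicular minus transitional) in Sh3gl1-/- cells; red and blue mark called rises and falls, grey genes were not called, and black bars are medians. Nearly all ribosomal protein genes lie near the median of 0.51, mitosis genes near -0.75 and macrophage markers near -2.99.

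Some cell cycle genes were lower in Sh3gl1-/- follicular than transitional cells. Of 31 mitosis genes tested, 11 were called lower and 0 higher, with a median of -0.75, and 18 were called lower with the replicate block. The count of 11 was 6 without replicate 1 of the transitional group. Of 33 DNA replication genes, 5 were called lower and 0 higher, with a median of -0.09, and 28 were not called. The count of 5 was 3, 2 and 2 without transitional replicates 1, 2 and 3, and 2 and 1 without follicular replicates 1 and 3. Top2a, the topoisomerase that untangles chromosomes (ENSMUSG00000020914, chromosome 11, 98992943 to 99024189, minus strand), had 48.2, 39.2 and 51.7 CPM in transitional and 23.2, 24.1 and 16.2 CPM in follicular cells (log2 difference -1.13 ± 0.17, adjusted p = 0.00248). Mki67, the source of the proliferation antigen Ki-67, had 27.6, 18.3 and 21.5 CPM in transitional and 12.4, 10.5 and 7.86 CPM in follicular cells (log2 difference -1.13 ± 0.21, adjusted p = 0.00679). Ccnb2, a mitotic cyclin, had 7.19, 4.78 and 6.05 CPM in transitional and 1.93, 2.01 and 2.35 CPM in follicular cells (log2 difference -1.52 ± 0.29, adjusted p = 0.00751). Nusap1, a spindle protein, had 24.7, 19.7 and 24.1 CPM in transitional and 12.9, 8.87 and 13.3 CPM in follicular cells (log2 difference -0.97 ± 0.18, adjusted p = 0.0076). The groups did not overlap in any of these 4 genes, which had the lowest adjusted p of the list. Rrm1 and Rrm2, the subunits of ribonucleotide reductase, fell by 0.54 and 0.73 on the log2 scale (adjusted p = 0.00637 and 0.0152). The call of Rrm2 was lost in 2 of the 6 fits without 1 library, at adjusted p of up to 0.0598. The calls of Cdc6, Gins4 and Uhrf1, the other members called, were lost in 4, 5 and 5 of them, at adjusted p of up to 0.0716, 0.146 and 0.132. Pcna and Mcm4, of the replication fork, had log2 differences of 0.16 and -0.09. Of 19 tested genes of cell cycle entry, 18 were not called and E2f2 was called lower by 0.91 on the log2 scale (adjusted p = 0.00651), with 2 genes lower with the block.

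Because Top2a, Mki67, Ccnb2 and Nusap1 were all lower in follicular cells, their promoters are shown, from RefSeq on GRCm38.p6, each as 250 bases before and 30 after the annotated start, 5′ to 3′ on the gene's strand. Capitals mark CCAAT or its reverse complement ATTGG, the letters of the NF-Y box, and TTTGAA or its reverse complement TTCAAA, the letters of the cell cycle homology region (CHR), both known from promoters of mitotic genes.
Top2a, chr11:99024160-99024439, minus strand: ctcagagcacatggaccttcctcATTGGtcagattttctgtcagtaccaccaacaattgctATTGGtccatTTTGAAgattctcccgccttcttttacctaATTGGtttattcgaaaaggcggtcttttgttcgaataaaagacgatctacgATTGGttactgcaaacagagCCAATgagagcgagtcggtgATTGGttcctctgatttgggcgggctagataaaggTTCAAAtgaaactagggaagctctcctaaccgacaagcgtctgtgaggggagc
Mki67, chr7:135716350-135716629, minus strand: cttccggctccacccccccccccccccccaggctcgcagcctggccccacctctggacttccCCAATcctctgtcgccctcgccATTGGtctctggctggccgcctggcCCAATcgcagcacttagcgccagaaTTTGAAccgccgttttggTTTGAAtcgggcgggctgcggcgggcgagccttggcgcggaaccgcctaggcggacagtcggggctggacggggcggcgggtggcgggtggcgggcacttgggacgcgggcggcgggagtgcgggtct
Ccnb2, chr9:70421525-70421804, minus strand: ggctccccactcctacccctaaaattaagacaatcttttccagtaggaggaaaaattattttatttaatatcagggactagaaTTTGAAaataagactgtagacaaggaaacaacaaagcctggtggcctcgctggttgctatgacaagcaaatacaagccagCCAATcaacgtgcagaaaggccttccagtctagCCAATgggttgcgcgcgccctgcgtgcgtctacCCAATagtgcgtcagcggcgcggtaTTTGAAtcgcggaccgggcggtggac
Nusap1, chr2:119618048-119618327, plus strand: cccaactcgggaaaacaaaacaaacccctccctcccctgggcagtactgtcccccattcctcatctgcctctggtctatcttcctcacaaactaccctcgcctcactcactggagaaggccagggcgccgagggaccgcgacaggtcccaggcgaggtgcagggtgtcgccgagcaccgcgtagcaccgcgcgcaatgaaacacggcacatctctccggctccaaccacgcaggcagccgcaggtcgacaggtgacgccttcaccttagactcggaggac
Top2a held 6 CCAAT and 2 CHR matches, Mki67 and Ccnb2 held 3 and 2 each, and Nusap1 held 0 of both in this window. The first entry of each gene in the table was used, and 27 of the 31 mitosis genes had one, with Ccna2, Aurkb, Tpx2 and Kif20a lacking an entry. CCAAT letters were found in 22 of the 27 windows (81.5%), against 36.6% of 27018 promoter windows of the same length. CHR letters were found in 15 (55.6%), against 17.4%. Both occurred in 15 of the 27 windows (55.6%), against 6.54% of all promoters. Matches were counted on both strands, also where they overlapped each other, and a match describes the sequence only.

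The same step was set beside that of wildtype littermates in a fit of 12 libraries, in which 14580 genes were tested. In that fit 1518 genes were called in Sh3gl1-/- cells (10.4%) and 3772 in wildtype cells (25.9%). Of the 1518 genes, 1466 (96.6%) had the same sign in wildtype cells. The genes called in both genotypes numbered 1125, which is 74.1% of the Sh3gl1-/- calls and 29.8% of the wildtype calls, and 1123 of them had the same direction. Across all genes tested, the log2 differences of both genotypes had a Pearson correlation of 0.62, a description across genes, which are not independent replicates. A gene called in 1 genotype only was not thereby shown to differ between them, which only the interaction term tested.

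The interaction term called 10 genes (0.0686% of 14580), 7 with a more positive difference in Sh3gl1-/- cells and 3 with a more negative one. The 7 were Rrm2, Ckap5, Top2a, Lig1, Ncapd2, Cdk1 and Mcm5, which act in DNA replication, chromosome structure or the mitotic spindle. In wildtype cells Top2a was at 85.3, 138 and 128 CPM in transitional and 15.4, 18.5 and 14.9 CPM in follicular libraries, and in Sh3gl1-/- cells of the same fit at 48.6, 39.3 and 52 CPM and 23.1, 24.3 and 16.2 CPM. The transitional wildtype libraries lay above all Sh3gl1-/- ones, whereas the follicular values of the genotypes overlapped. The step was -1.14 ± 0.19 in Sh3gl1-/- and -2.84 ± 0.20 in wildtype cells, a difference of 1.71 ± 0.27 (adjusted p = 0.0409). Rrm2 was at 62.8, 73.2 and 79.1 CPM in wildtype transitional and 33, 27.8 and 33 CPM in Sh3gl1-/- transitional libraries, and its steps were -2.27 ± 0.16 and -0.73 ± 0.16, a difference of 1.54 ± 0.22 (adjusted p = 0.0409). Mcm5, a subunit of the replicative helicase, had 56.6, 74.9 and 71.1 CPM against 39.8, 41.2 and 42.7 CPM in transitional libraries, with a difference of the steps of 1.09 ± 0.18 (adjusted p = 0.0445). The 3 genes with a more negative difference were P2rx4, an ATP-gated channel, Gm15675 and Malat1, a nuclear noncoding RNA. P2rx4 rose in wildtype cells from 39.1, 42.2 and 44.1 CPM to 75.1, 67.5 and 67.7 CPM, and in Sh3gl1-/- cells had 70.8, 69.2 and 81.9 CPM and 68.9, 66.8 and 72.9 CPM, a difference of -0.84 ± 0.13 (adjusted p = 0.0409).

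This count was sensitive to single libraries and to the model. It was 0 in 9 of the 12 fits that each left out 1 library. It was 23 without replicate 1 of wildtype transitional cells, which included all 10 genes above. Without replicate 2 of Sh3gl1-/- transitional cells it was 10, of which 4 were among the 10 genes above. Without replicate 3 of wildtype follicular cells it was 16, of which 6 were among them. At an unadjusted p under 0.05 the full fit had 1992 genes. Libraries with the same replicate number deviated together within each genotype, and with the replicate block 99 genes were called, 66 of them (0.453% of 14580) with a more positive difference in Sh3gl1-/- cells. Those 66 included 10 of 31 mitosis genes and 7 of 33 DNA replication genes, and the 10 genes above were all called. Without the block, 30 of 31 mitosis genes and 26 of 33 replication genes had a more positive difference in Sh3gl1-/- cells, with medians of 1.40 and 0.46, against -0.02 for all genes tested. The median step of the mitosis list was -0.76 in Sh3gl1-/- and -2.28 in wildtype cells.

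**Figure D5:**
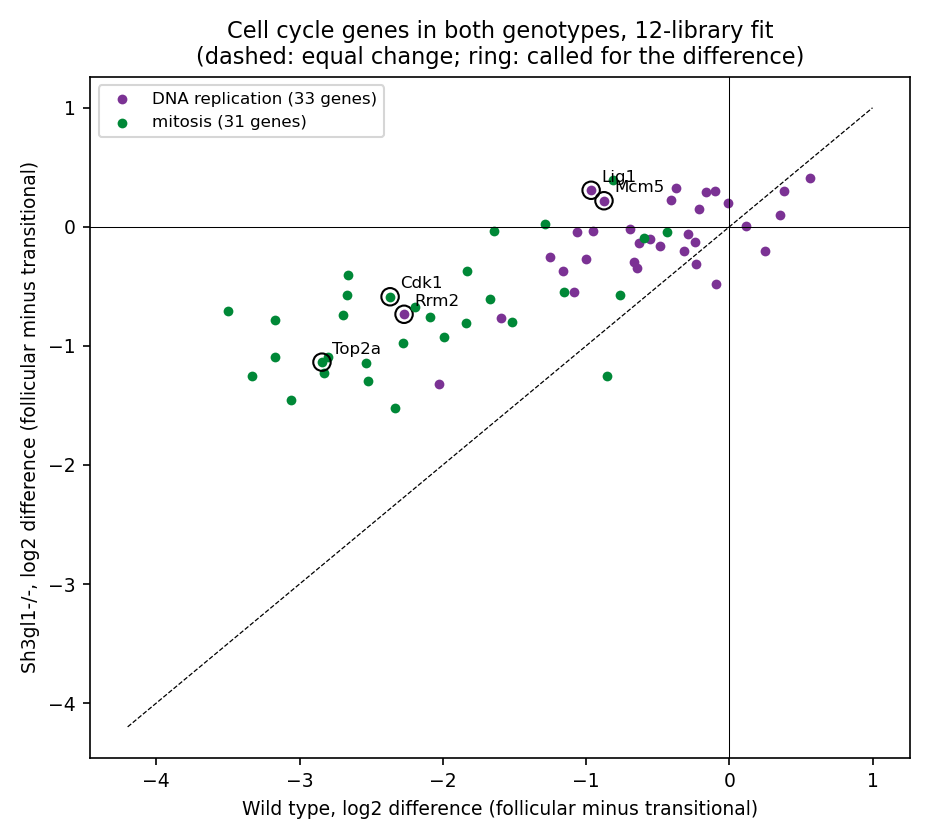
Log2 differences of the step for 33 DNA replication genes and 31 mitosis genes, wildtype on the x axis and Sh3gl1-/- on the y axis, from the 12-library fit; the dashed line marks equal change and rings mark genes called for the difference. Most points lie above the line, the mitosis genes farthest, with medians of -2.28 in wildtype and -0.76 in Sh3gl1-/- cells.

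Outside the mitosis and DNA replication lists, the interaction term called no member of any list. The lists for MHC class II, homing, BCR signalling, iron, endocytosis, ribosomal proteins and interferon each had between 2 and 8 members at an unadjusted p under 0.05. Over all 14580 genes tested, 1992 were under that value. The endocytosis list had 8 of 28, with a median difference of -0.21. With the replicate block, 3 of 25 interferon-induced genes were called with a more positive difference in Sh3gl1-/- cells. Homing and MHC class II each had 1 member with a more negative difference in that fit. DESeq2 called between 0 and 4 members of each of these 7 lists. Of 18 glycolysis genes, 8 were at an unadjusted p under 0.05 and 16 had a more positive difference, and DESeq2 called 3 as more positive. Of 20 inhibitory receptors and phosphatases, 6 were at an unadjusted p under 0.05, and DESeq2 called 2 as more positive. Of 15 immediate early genes, 3 were at an unadjusted p under 0.05 and 3 had a more positive difference, with a median difference of -0.63. Their median step was -0.12 in Sh3gl1-/- and 0.45 in wildtype cells. With the replicate block, 2 immunoglobulin constant region genes were called with a more negative difference. BAFF and APRIL receptors, cytokine receptors and cell cycle entry genes each had 1 member called as more positive with the block. The median step of the interferon list was -0.41 in Sh3gl1-/- and -0.88 in wildtype cells, and that of ribosomal proteins 0.50 and 0.40.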

How the data were processed

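RNA of sorted splenic B cells was sequenced in 18 libraries, of which the 6 ex vivo Sh3gl1-/- libraries and, for the genotype difference, the 6 ex vivo wildtype libraries were used. The authors deposited expected counts, TPM and FPKM per gene. The submitters' processing notes name cutadapt 1.9.1, STAR 2.5.2a, RSEM 1.3.0 and GRCm38, with no roles given, and the labels a stranded KAPA mRNA kit, whereas the study's methods name other kits and tools, for follicular cells. The strand setting of the counting was not given in the sources used here, so genes that overlap cannot be fully separated. All 54 columns of values mapped to samples, and 51719 of 51912 gene IDs received a GENCODE M21 symbol.

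Expected counts were rounded to whole numbers, filtered with filterByExpr and scaled by TMM. They were tested with edgeR 4.0.16 (R 4.3.3, quasi-likelihood test, Benjamini-Hochberg adjustment) on the 6 Sh3gl1-/- libraries, and on all 12 ex vivo libraries for the difference of the step between genotypes. TPM and FPKM, normalised by the authors, were not tested. The script was tested on simulated data. Replicates are described as biological, from littermates. Any pair of replicates differed by more than sampling noise (chi-square of 9.88 to 30.2 per degree of freedom). Same-numbered Sh3gl1-/- libraries deviated together from their group means (r = 0.235, 0.32 and 0.129 over 13870 genes). The numbers were therefore taken to pair the libraries. The main fits leave this pairing out, and a fit with the replicate block stands beside many of the results that it changed. With the block, called falls numbered 5 for homing, 6 for transcription factors, 8 for inhibitory receptors and 6 for DNA replication. They numbered 12 for interferon-induced genes and 3 for marginal zone markers. Called rises with the block numbered 9 for MHC class II, 77 for ribosomal proteins and 16 for the respiratory chain. They numbered 6 for cholesterol synthesis and 5 for glycolysis. Intervals were not computed from counts, and depth covers counting error only.

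The gene lists and members were chosen with earlier results of these data known. Named are Sh3gl1, gate genes and markers; up to 4 called members per direction of each list and its extremes; the 12 called genes per direction with the lowest adjusted p and the 8 with the largest change at a mean of at least 10 CPM; and 5 per direction for the genotype difference. Other genes named were chosen after their values were seen. Alternatives were DESeq2 1.42.0, RLE scaling, other filters on low counts, removal of immunoglobulin genes, the replicate block, the 12-library fit and leaving out each library. Promoters came from RefSeq on GRCm38.p6. Figures were drawn with matplotlib 3.10.9. Some genes are not reported here.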

Additional observations from a re-analysis of the deposited data

Results flagged for a closer look

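The step from transitional to follicular cells differed between Sh3gl1-/- and wildtype cells for 10 genes by the interaction term of edgeR's quasi-likelihood fit on 12 libraries. The values are log2 differences of the steps, Sh3gl1-/- minus wildtype, with an adjusted p of 0.0409 for all but Mcm5, where it was 0.0445. More positive in Sh3gl1-/- cells were Rrm2 (1.54), Top2a (1.71), Cdk1 (1.78), Lig1 (1.27), Mcm5 (1.09), Ncapd2 (1.03) and Ckap5 (0.80). More negative were P2rx4 (-0.84), Gm15675 (-0.75) and Malat1 (-0.41). For Ckap5, the microtubule polymerase of the spindle, the step was 0.09 ± 0.08 in Sh3gl1-/- and -0.71 ± 0.09 in wildtype cells. Malat1 RNA rose by 0.30 ± 0.05 on the log2 scale in wildtype cells and had a step of -0.11 ± 0.05 in Sh3gl1-/- cells. Summed plasma cell markers, counted with these libraries, were higher in every Sh3gl1-/- transitional library (1195.6 to 4740.3 CPM) than in every wildtype one (522.7 to 742 CPM), and their part in these values was not tested.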

How the results depend on the processing

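The count of genes called between stages in Sh3gl1-/- cells (1578) stayed within 1.5 times under every alternative tool, scaling and filter, from 1474 without immunoglobulin genes to 2187 with all genes that had a count. It was 2166 with the replicate block, and DESeq2 called 1898. Leaving out 1 library gave between 991 and 1480 genes, between 334 and 593 of them higher and between 657 and 887 lower. Requiring a difference of 1 on the log2 scale left 595 genes, 85 higher and 510 lower. The genotype difference (10 genes) was the least stable count. It was 340 by DESeq2 (223 more positive, 117 more negative), 462 with all genes that had a count (249 and 213) and 99 with the replicate block (66 and 33). Leaving out 1 library gave between 0 and 23, with 0 to 16 more positive and 0 to 7 more negative. The cause was not tested. The wildtype step (3772 genes) gave between 2444 and 3773 genes without 1 library, 1048 to 1651 higher and 1396 to 2122 lower. Values of 5 genes that were not called changed sign when 1 library was left out. Over these fits the log2 difference ranged from -0.0692 to 0.0384 for Ptprc, from -0.31 to 0.69 for Cxcr4, from -0.41 to 0.15 for Xbp1, from -0.36 to 0.0656 for Rpl13 and from -0.30 to 1.39 for Rpl34. Over the fits of the Sh3gl1-/- step without 1 library, 911 values of the genes selected for naming kept their direction and call, 128 lost the call, 2 gained it and 8 changed sign. For the 10 genes of the genotype difference, 20 such values kept the call and 100 lost it. The replicate block added the calls of Tnfrsf13c, Ebf1, Cd79b, Notch2, Lyz2, Tfrc and Rpl34, given in the report, and changed no other call of the genes named there.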
